A study of Mus musculus with 6 samples.

Results

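The transcription factor genes that build the Müllerian duct were examined by the chromatin accessibility of their loci in primary oviductal smooth muscle cells. They were 10 genes: Wt1, Nr2f1, Nr2f2, Osr1 and Tbx18 of the mesenchyme, Emx2, Lhx1, Pax2 and Pax8 of the duct epithelium, and Lhx9 of the gonad and the coelomic epithelium. A region belonged to a gene when it overlapped the gene body or the 50 kb on either side of it. By this rule 65 of the 66679 accessible regions of the series belonged to the 10 genes.

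The Müllerian duct grows from the coelomic epithelium beside the nephric duct and forms the oviduct, the uterus and the upper vagina. Its epithelial tube depends on the homeobox and paired box factors Emx2, Lhx1, Pax2 and Pax8, and the mesenchyme around the tube, in which Wt1 and the orphan nuclear receptors Nr2f1 and Nr2f2 are active, gives rise to stroma and smooth muscle. ATAC-seq cuts DNA with the Tn5 transposase where nucleosomes leave it exposed, so a peak marks an accessible promoter or a distal element. Pbrm1 encodes PBRM1, a bromodomain subunit of the PBAF form of SWI/SNF, which slides or evicts nucleosomes with the energy of ATP.

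Cells came from oviducts of mice aged 8 to 12 weeks on day 2 of pregnancy. There were 3 WT and 3 Pbrm1 cKO libraries. In the study's mice Pbrm1 fl/fl was combined with a Cre driven by the progesterone receptor gene (PR-IRES-cre), so cells that never expressed this receptor kept Pbrm1. The controls carry the label WT, whereas a supplement of the study names Pbrm1 fl/fl controls for these cells. The supplement calls the replicates biological, but neither it nor the labels say how many animals stood behind a library, and p-values measure only the spread between these libraries. The deletion could not be checked from peak lists.

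The data were peak lists without read counts. There was 1 list of reproducible peaks per genotype, and merging the 2 lists gave the 66679 regions. There was also a relaxed list per library, with up to 300000 entries. Within a library, regions were ordered by the strongest −log10 p of the relaxed entries that overlapped them, and ranks are given as a percent of all regions, where a low percent is a strong region and 100% is a region with no entry. The median listed summit held 8 sequence tags in WT library 3 and 13 to 15 tags in the other 5 libraries, and 3065 regions had no entry in WT library 3, beside 400 to 709 in each of the others. A region without an entry lay below the threshold of that list and is not shown to be closed. Promoter regions lay within 1 kb of an annotated transcription start, and coordinates are on GRCm38.

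The tissue label was checked against markers. A promoter region was found at 5 of 5 smooth muscle genes (Acta2, Myh11, Cnn1, Tagln, Des), with mean ranks from 29.1% to 70.3%. The promoters of 6 of 7 oviduct epithelium markers held no region (Epcam, Cdh1, Krt7, Krt8, Krt18, Ovgp1), and the exception was Foxj1, the factor of ciliated cells, at 6.58%. Regions also lay at 3 of 3 fibroblast genes (35.0% to 57.2%) and at 2 of 4 mesothelium genes (67.0% and 76.2%). Of 3 immune and endothelial genes 2 had one, Pecam1 at 52.6% and Cdh5 at 71.5%, and Ptprc had none. Open promoters thus stood at all listed muscle and fibroblast genes. They also stood at the ciliated cell gene Foxj1, at 2 of 4 mesothelium genes and at the listed endothelial genes, Pecam1 and Cdh5. The part of other cell types in the values below was not tested.

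The sequences below are those of accessible regions and of promoters with and without a merged region. Capitals mark the motifs AGGTCA, the half-site of nuclear receptors such as NR2F2, TGANTCA, the AP-1 site, GGAATG, the TEAD site, and GCGTGGG, a site of WT1 and EGR zinc fingers, on either strand. For regions, the 300 bases around the centre on the plus strand are shown. The first pair at Wt1 are its strongest distal element, which lies downstream of the gene (chr2:105174267-105174566), and the intronic element with the smallest p among regions with a higher score in Pbrm1 cKO (chr2:105141738-105142037).
Wt1 downstream element: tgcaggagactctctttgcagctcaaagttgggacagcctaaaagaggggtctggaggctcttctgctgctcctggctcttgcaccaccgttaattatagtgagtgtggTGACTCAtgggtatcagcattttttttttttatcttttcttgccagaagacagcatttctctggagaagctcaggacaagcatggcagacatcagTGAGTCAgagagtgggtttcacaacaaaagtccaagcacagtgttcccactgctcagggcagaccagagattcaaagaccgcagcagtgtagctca
Wt1 intronic element: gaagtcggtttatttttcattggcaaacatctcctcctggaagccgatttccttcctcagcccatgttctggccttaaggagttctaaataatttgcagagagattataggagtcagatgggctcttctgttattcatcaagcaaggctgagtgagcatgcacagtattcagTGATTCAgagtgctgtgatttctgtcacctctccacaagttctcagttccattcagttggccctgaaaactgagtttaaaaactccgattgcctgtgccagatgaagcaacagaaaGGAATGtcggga

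The next set holds the strongest distal elements of Pax8 (chr2:24453258-24453557, in an intron), Nr2f2 (chr7:70331656-70331955, in an intron of the noncoding gene Gm29683) and Osr1 (chr12:9584788-9585087, intergenic). The element upstream of Lhx1 (chr11:84561255-84561554, intergenic) had the smallest p of all member regions.
Pax8 intronic element: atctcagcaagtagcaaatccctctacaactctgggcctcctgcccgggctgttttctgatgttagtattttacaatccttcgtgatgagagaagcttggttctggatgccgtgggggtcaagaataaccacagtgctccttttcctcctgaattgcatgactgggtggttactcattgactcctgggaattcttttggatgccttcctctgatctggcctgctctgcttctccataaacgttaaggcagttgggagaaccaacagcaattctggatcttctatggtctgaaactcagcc
Nr2f2 distal element: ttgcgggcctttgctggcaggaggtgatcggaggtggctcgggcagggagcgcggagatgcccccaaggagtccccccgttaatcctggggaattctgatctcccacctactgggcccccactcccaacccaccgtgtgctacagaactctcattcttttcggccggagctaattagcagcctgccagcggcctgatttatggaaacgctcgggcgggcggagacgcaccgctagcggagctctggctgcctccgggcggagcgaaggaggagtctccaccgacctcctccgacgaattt
Osr1 distal element: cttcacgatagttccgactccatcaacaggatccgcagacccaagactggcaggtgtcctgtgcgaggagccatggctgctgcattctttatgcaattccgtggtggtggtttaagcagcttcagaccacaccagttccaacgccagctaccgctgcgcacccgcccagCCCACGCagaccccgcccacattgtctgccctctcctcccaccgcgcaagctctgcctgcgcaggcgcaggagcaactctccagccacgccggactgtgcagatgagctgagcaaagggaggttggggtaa
Lhx1 upstream element: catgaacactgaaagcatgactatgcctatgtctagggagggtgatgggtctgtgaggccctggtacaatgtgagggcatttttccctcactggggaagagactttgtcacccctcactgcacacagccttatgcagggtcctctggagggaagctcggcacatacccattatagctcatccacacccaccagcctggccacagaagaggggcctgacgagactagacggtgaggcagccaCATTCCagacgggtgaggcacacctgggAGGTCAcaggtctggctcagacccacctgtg

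Promoters are given as the 250 bases before a RefSeq start on the gene's strand (GRCm38.p6). RefSeq promoters matched 8 of the 10 genes, all but Wt1 and Osr1. Tbx18 (chr9:87731261-87731510, minus strand) lay under an accessible region, whereas Pax2 (chr19:44755502-44755751, plus strand) and Pax8 (chr2:24475600-24475849, minus strand) did not.
Tbx18 promoter: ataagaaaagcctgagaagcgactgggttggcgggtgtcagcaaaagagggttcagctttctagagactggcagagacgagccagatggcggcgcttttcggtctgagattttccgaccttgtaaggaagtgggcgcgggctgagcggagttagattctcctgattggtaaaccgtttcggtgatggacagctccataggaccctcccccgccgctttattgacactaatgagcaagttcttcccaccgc
Pax2 promoter: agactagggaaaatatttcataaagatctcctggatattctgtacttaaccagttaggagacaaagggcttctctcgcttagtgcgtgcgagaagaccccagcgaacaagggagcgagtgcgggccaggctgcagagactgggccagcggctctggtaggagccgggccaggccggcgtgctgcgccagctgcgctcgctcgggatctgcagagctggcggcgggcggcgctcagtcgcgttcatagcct
Pax8 promoter: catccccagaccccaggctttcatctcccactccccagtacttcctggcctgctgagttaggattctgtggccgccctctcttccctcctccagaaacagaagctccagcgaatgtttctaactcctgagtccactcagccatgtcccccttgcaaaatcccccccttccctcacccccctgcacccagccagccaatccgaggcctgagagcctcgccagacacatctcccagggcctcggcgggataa

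None of the 3 printed promoters held any of the 4 motifs. They held 15 CG dinucleotides at Tbx18, 20 at Pax2 and 6 at Pax8, beside a median of 6 over 32841 RefSeq promoters of the same length. The other RefSeq promoters of Pax2, also without a region, held 5 and 25. Over all these promoters AGGTCA was in 14.0%, TGANTCA in 6.75%, GGAATG in 12.6% and GCGTGGG in 4.31%.

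Wt1 held the most accessible regions of the 10 genes, with 22 of the 65 regions, followed by Emx2 with 9, Nr2f2 with 8, Pax8 with 6, Lhx9 with 5, and Nr2f1, Tbx18 and Lhx1 with 4 each. Osr1 had 2 regions and Pax2 had 1. Per 100 kb of window, Wt1 held 15.0 regions, which placed it at the 97.9th percentile of 21938 protein-coding genes. Emx2 stood at the 80.7th percentile with 8.41 regions, and Pax2 at the 15.5th with 0.550. The median over the 10 genes was 3.80 regions per 100 kb, beside 4.48 over all protein-coding genes. The map of regions around each gene shows these differences.

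**Figure D1:**
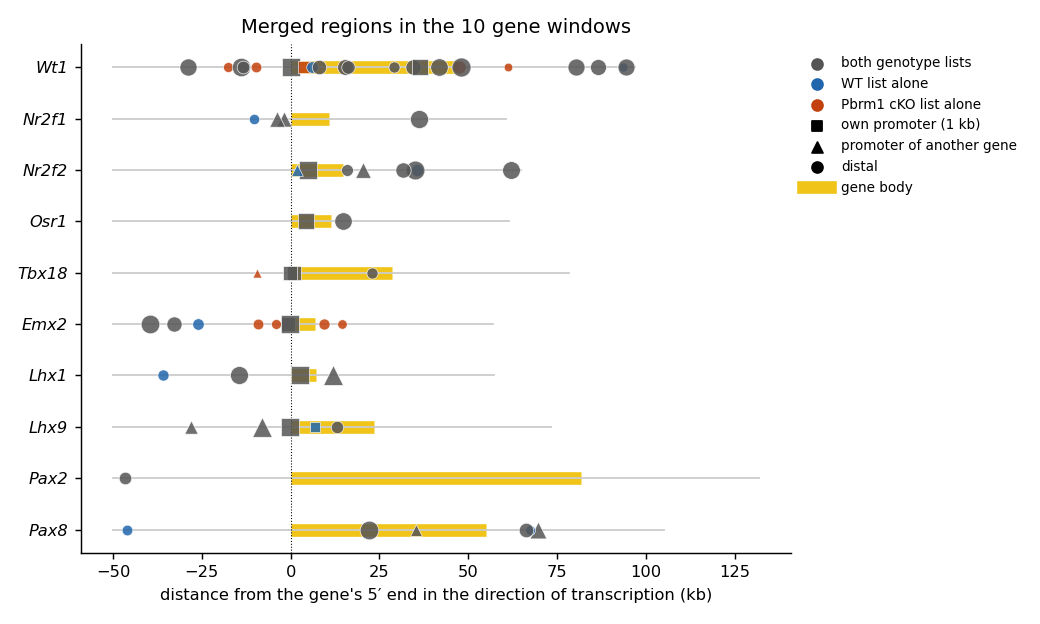
Merged accessible regions by distance in kb from the 5′ end of each gene, in the direction of transcription. The grey line is the window of the gene body plus 50 kb, the yellow bar is the gene body, larger symbols have better mean ranks, squares are own promoter regions, triangles are promoter regions of other genes, circles are distal, and colour gives the genotype list. Wt1 holds 22 regions along its whole window and Pax2 holds 1 at its edge.

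Of the 65 regions, 12 were promoter regions of the genes themselves, 10 were promoter regions of another gene in the window, and 43 were distal. Over all regions, 32.3% lay at a promoter of any gene. Their median width was 523 bp, beside 481 bp over all regions, and their median rank was 50.6%, beside 53.3%. An entry in all 6 libraries was present for 61 of 65 regions, or 93.8%, beside 93.5% over all regions.

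The mesenchymal gene Wt1, a zinc finger factor needed for the urogenital ridge, had an open promoter at its 5′ end (chr2:105126145-105127311). The region covers coding and untranslated exon sequence and the start of the antisense RNA Wt1os. It ranked at 15.9%, 10.8% and 11.4% in WT libraries 1 to 3 and at 12.3%, 13.2% and 11.8% in Pbrm1 cKO libraries 1 to 3. The genotypes overlapped, and all 6 values lay close together. The strongest region of the Wt1 window was not the promoter but the downstream element printed above (chr2:105174233-105174601), which ranked at 10.1%, 3.30% and 10.4% in WT and at 13.5%, 9.86% and 10.5% in Pbrm1 cKO. It lies 47.7 kb from the Wt1 5′ end, just past the 3′ end of the gene, and the genotypes overlapped there as well.

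Nr2f2 encodes COUP-TFII, a nuclear receptor of the stroma in the female tract. Its open promoter region lay in an intron at an internal start (chr7:70361275-70362242) and ranked at 18.3%, 10.5% and 7.09% in WT and at 9.22%, 14.8% and 9.67% in Pbrm1 cKO. At the 5′ end of the Nr2f2 gene no merged region was found, and only 3 of the 6 relaxed lists had an entry within 1 kb. Its best distal region (chr7:70331300-70332312), 34.4 kb downstream of the 5′ end, ranked at 12.4%, 8.61% and 5.07% in WT and at 17.2%, 18.5% and 9.81% in Pbrm1 cKO. This element is rich in CG, with 23 CG dinucleotides in 300 bases.

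Nr2f1, the paralog that encodes COUP-TFI, had no merged region within 1 kb of any of its 6 annotated starts. Weak relaxed entries stood there in all 6 libraries, and they would have ranked from 75.7% to 97.6%. The nearest regions lay 1.85 kb and 3.60 kb upstream, both at starts of the divergent noncoding gene A830082K12Rik. They ranked from 31.5% to 86.6%. The best distal region of the window (chr13:78163035-78164022) overlaps coding and untranslated exon sequence of Fam172a. It ranked at 14.8%, 13.9% and 16.8% in WT and at 18.3%, 20.4% and 32.8% in Pbrm1 cKO, without overlap of the genotypes.

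Osr1, a zinc finger factor of the intermediate mesoderm, was open at its internal start (chr12:9574256-9574864, untranslated exon). The region ranked at 28.3%, 44.6% and 17.4% in WT and at 41.8%, 43.0% and 55.9% in Pbrm1 cKO, and the genotypes overlapped. Its distal region 14.3 kb downstream of the 5′ end was stronger, with a mean rank of 25.8%. Tbx18, a T-box factor of mesenchyme that forms smooth muscle in the urinary tract, had a promoter region at its 5′ end (chr9:87731223-87731515). It ranked at 46.5%, 56.6% and 28.7% in WT and at 56.6%, 35.4% and 67.6% in Pbrm1 cKO, the weakest best promoter among the genes that had one.

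Among the genes of the duct epithelium, Emx2 and Lhx1 had promoter regions and Pax2 and Pax8 did not. Emx2, a homeobox factor without which the duct is lost, was open over its 5′ end (chr19:59457776-59458819), at 11.9%, 23.4% and 19.0% in WT and 20.5%, 23.9% and 21.3% in Pbrm1 cKO. The region also covers the antisense gene Emx2os. A distal element 38.9 kb upstream (chr19:59417964-59419495) was stronger, at 20.6%, 9.20% and 14.8% in WT and 13.1%, 18.5% and 10.2% in Pbrm1 cKO. The genotypes overlapped at both.

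Lhx1, a LIM homeobox factor of the growing duct, had a merged region at its internal starts (chr11:84522604-84523095, coding and untranslated exon). At its 5′ end there was none, and 5 of the 6 relaxed lists had an entry within 1 kb. The merged region ranked at 16.3%, 15.4% and 27.1% in WT and at 35.5%, 32.5% and 28.3% in Pbrm1 cKO. Every WT library stood above every Pbrm1 cKO library there. The best-ranked of all 65 regions lay in the Lhx1 window, but at the promoter of Aatf, a neighbouring gene (chr11:84513076-84514001), at 0.517% to 2.78%. The best distal region of Lhx1 (chr11:84539665-84540690), 14.1 kb upstream, ranked at 18.3%, 13.7% and 19.7% in WT and at 24.9%, 25.7% and 23.6% in Pbrm1 cKO, again without overlap of the genotypes.

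Pax2 and Pax8 are paired box factors of the nephric and Müllerian ducts, and Pax8 stays on in the adult epithelium of the tract. Relaxed entries within 1 kb of a Pax2 start would have ranked from 71.2% to 89.5%. The same entries at Pax8 would have ranked at 67.9% in WT library 3 and from 92.6% to 98.6% in the other libraries. The single region of the Pax2 window (chr19:44708994-44709582) is intergenic and ranked from 56.1% to 86.1%. The Pax8 locus was different away from its promoter. The intronic element printed above (chr2:24452911-24453905), 21.7 kb inside the gene, ranked at 12.8%, 7.01% and 13.8% in WT and at 17.6%, 15.2% and 16.0% in Pbrm1 cKO. Its mean rank was 13.7%, beside 12.6% at the Wt1 promoter, although no Pax8 start held a merged region, and every WT library stood above every Pbrm1 cKO library. The element also lies in an intron of the noncoding gene Gm13415.

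Lhx9, a LIM homeobox factor of the early gonad, had a promoter region over its 5′ end (chr1:138848174-138849247, untranslated exon). It ranked at 16.4%, 29.7% and 22.5% in WT and at 45.7%, 31.8% and 32.8% in Pbrm1 cKO, and every WT library stood above every Pbrm1 cKO library. The strongest region of the window, at 1.11% to 7.75%, was the promoter of its neighbour 2310009B15Rik. The only distal region of Lhx9 lies in an intron and ranked from 41.0% to 89.7%.

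In order of mean rank, the best promoter regions stood at 11.6% for Nr2f2, 12.6% for Wt1, 19.98% for Emx2, 25.8% for Lhx1, 29.8% for Lhx9, 38.5% for Osr1 and 48.6% for Tbx18. The ranges over the 6 libraries overlapped between each gene and the next in this order. A promoter region was present at 7 of the 10 genes, or 70%, beside 62.8% of protein-coding genes. Where present, the median of the members was 25.8%, beside 12.2% over protein-coding genes, so by their median these promoters stood lower than the usual open promoter. Nr2f2 stood slightly above the protein-coding median and Wt1 was close to it. The median of the 5 smooth muscle promoters was 35.3%.

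**Figure D2:**
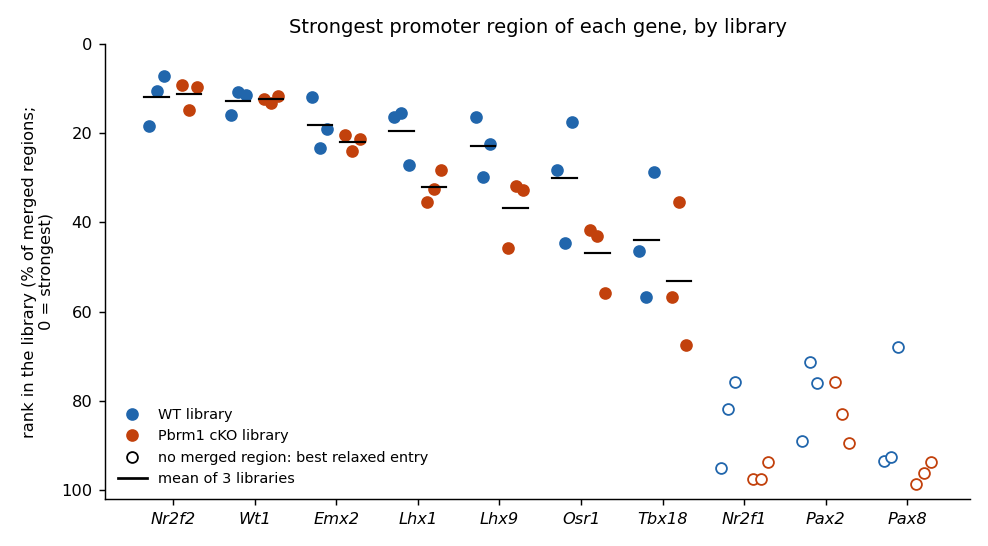
Rank of the strongest promoter region of each gene in each library, as a percent of the 66679 merged regions, where 0 is the strongest. Blue points are WT and orange points are Pbrm1 cKO libraries, bars are means of 3 libraries, and open points are relaxed entries at genes with no merged promoter region. Nr2f2 and Wt1 stand highest, and Nr2f1, Pax2 and Pax8 have only weak entries between 67.9% and 98.6%. The value of 67.9% is that of Pax8 in WT library 3.

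The comparison of WT with Pbrm1 cKO asked whether loss of Pbrm1 changed the accessibility of these loci. By list membership, 45 of the 65 regions were in both genotype lists, 10 were in the WT list alone and 10 in the Pbrm1 cKO list alone. Over all regions, 13.4% were in the WT list alone and 17.4% in the Pbrm1 cKO list alone, beside 15.4% for each among the 65. There is 1 list per genotype, so this count has no replicate check, and which libraries entered either list is not given in the sources used here. Of the 20 regions in the list of a single genotype, 16 had an entry in every library of both genotypes. At Emx2, 4 of 9 regions were in the Pbrm1 cKO list alone, and 3 of these 4 had an entry in every library. In rank the genotypes overlapped at all 4.

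The ranks were then tested. limma was fitted over all 66679 regions to the rank score, log2 of the number of regions over the rank, and a negative difference means a lower standing in Pbrm1 cKO. None of the 65 regions passed an adjusted p of 0.05, beside 0.069% of all regions, 0.039% that were higher and 0.03% that were lower. The smallest adjusted p was 0.0767. At an unadjusted p of 0.05, 11 of 65 regions passed in limma, which is 16.9% beside 15.9% of all regions. Of the 65 regions, 3 passed as higher, beside 7.6% of all regions, and 8 of the 65 passed as lower, beside 8.3% of all regions. When ranks were turned into normal scores, limma called 2 regions lower and none higher, where 2.33% of all regions were called. The other settings called none. In bulk chromatin, fewer cells with an open element and less access per cell cannot be told apart.

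More regions were lower than higher. Of the 65 regions 43 were lower in Pbrm1 cKO, or 66.2%, beside 49.9% of all regions, and the median difference was −0.15, beside 0.00 over all regions. Among own promoter regions 9 of 12 were lower, with a median of −0.22, beside 54.0% of all promoter regions and a median of −0.04. Among distal regions 29 of 43 were lower, with a median of −0.18, beside 48.0% of all distal regions and a median of 0.02. At promoters of other genes in the same windows, 5 of 10 were lower. With windows of 10 kb the median over the 39 regions left was −0.09, and 53.8% were lower. A region of a single list was in the merged set through the genotype where it was called, so the 45 regions of both lists were also read alone, a choice made after seeing the data. Of these 31 were lower, or 68.9%, with a median of −0.15, beside 50.1% of the regions in both lists over the genome. At an unadjusted p of 0.05, 4 of the 45 passed in limma, or 8.89%, beside 9.60%. Neighbouring regions of a gene share their locus and are not independent.

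**Figure D3:**
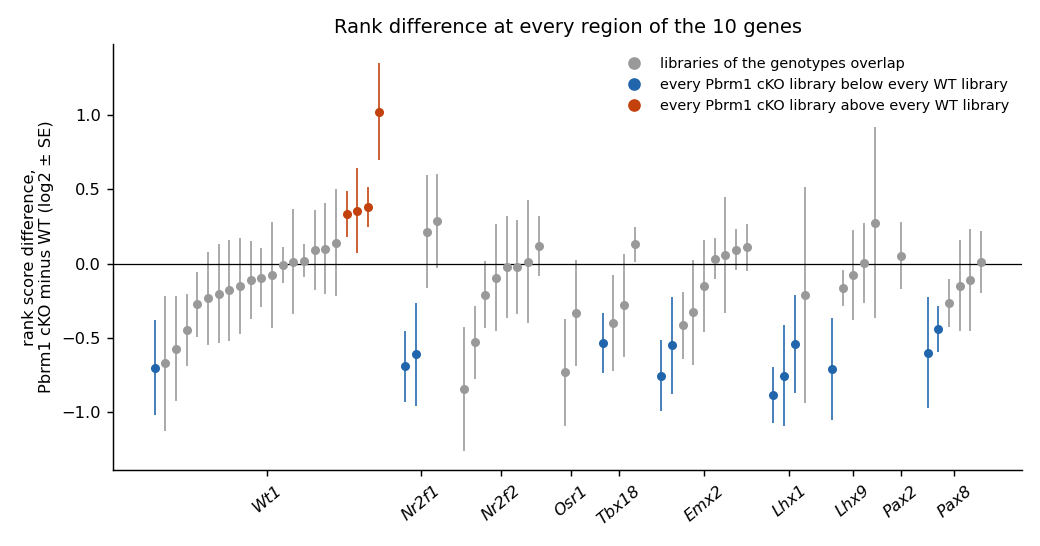
Difference of the rank score, Pbrm1 cKO minus WT on the log2 scale with its SE, at each of the 65 regions, sorted within each gene. Blue marks regions where every Pbrm1 cKO library stood below every WT library (12 regions), orange the opposite (4 regions, all at Wt1), and grey the overlap of the genotypes.

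The genotypes did not overlap at 16 of 65 regions. Pbrm1 cKO stood below WT at 12 of them, or 18.5%, beside 10.8% of all regions, and above WT at 4, or 6.15%, beside 10.6%. Of the 12, 4 were in the WT list alone, and of the 4, 2 were in the Pbrm1 cKO list alone. By gene, all 4 regions of Lhx1, 2 of 2 of Osr1, 5 of 6 of Pax8, 6 of 8 of Nr2f2 and 3 of 4 of Tbx18 had a lower score in Pbrm1 cKO. Wt1 had 13 of 22 lower, Emx2 5 of 9, Lhx9 3 of 5, Nr2f1 2 of 4 and Pax2 0 of 1. These counts take in every region of a window, also those at neighbouring genes. The lower regions of the Pax8 window included the promoter and untranslated exons of its neighbour Psd4. Those of the Lhx1 window included the Aatf promoter.

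At the best promoters, the differences were −0.75 ± 0.34 for Lhx1, −0.73 ± 0.36 for Osr1, −0.71 ± 0.34 for Lhx9, −0.33 ± 0.35 for Emx2 and −0.28 ± 0.35 for Tbx18 (SE, n = 3 each). They were 0.01 ± 0.35 for Wt1 and 0.01 ± 0.41 for Nr2f2. The smallest adjusted p among them was 0.289 in limma, at Lhx1. The Osr1 difference was −0.39 without WT library 3, and that of Emx2 was −0.05 without WT library 1 and −0.54 without WT library 2. The Tbx18 difference was −0.002 without WT library 3 and −0.08 without Pbrm1 cKO library 3, and it was −0.55 without Pbrm1 cKO library 2 and −0.49 without WT library 2.

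The Lhx1 upstream element came nearest to the threshold (chr11:84561134-84561676). It lies 35.6 kb upstream of the 5′ end, between genes, and ranked at 53.6%, 63.4% and 45.1% in WT and at 98.0%, 99.2% and 98.9% in Pbrm1 cKO. The tags at its best summit were 24, 18 and 14 in WT and 8, 5 and 5 in Pbrm1 cKO. The tags are recovered from the same summits that set the ranks and are not a separate measure. The genotypes did not overlap. The element was in the WT list alone, so it was tested only because it was called in the genotype where it is high. The difference was −0.88 ± 0.19 (SE), with an adjusted p of 0.0767 in limma. Under normal scores the adjusted p was 0.0032, and it ranged from 0.0032 to 0.229 over 12 settings. In the stricter part of the genotype lists the difference was −0.50. The centre held 1 AGGTCA and 1 GGAATG.

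An Emx2 element 25.8 kb upstream (chr19:59432031-59432550), in an intron of Emx2os, had the next smallest p among regions that were lower. It ranked at 36.1%, 74.4% and 58.9% in WT and at 94.5%, 98.0% and 81.6% in Pbrm1 cKO. WT library 1 stood well above the rest, and the genotypes did not overlap. The difference was −0.75 ± 0.24, with an adjusted p of 0.148 in limma, and −0.46 without WT library 1. Nr2f1 followed with an element 10.2 kb upstream (chr13:78210004-78210318) in an intron of A830082K12Rik. It ranked at 79.8%, 78.4% and 35.2% in WT and at 100%, 94.6% and 97.8% in Pbrm1 cKO, and WT library 3 stood apart from the other 5. Both elements, like that of Lhx1, were in the WT list alone and entered the test through the genotype where they are high. The Nr2f1 difference was −0.69 ± 0.24 and its adjusted p 0.173 in limma, and the difference was −0.30 without WT library 3. It was the other region called under normal scores, at an adjusted p of 0.0286, in a range from 0.0286 to 0.4002 over 10 settings.

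The 3 regions with the smallest p among those that were higher in Pbrm1 cKO all lay at Wt1. The intronic element printed above (chr2:105141405-105142370), 14.9 kb inside the gene, ranked at 61.5%, 51.1% and 54.2% in WT and at 27.2%, 35.8% and 20.8% in Pbrm1 cKO. Its summit held 30, 28 and 16 tags in WT and 56, 41 and 57 tags in Pbrm1 cKO. All 3 Pbrm1 cKO libraries were higher, by 1.02 ± 0.32 on the log2 rank score, and the adjusted p was 0.146 in limma. Ranked by fold, the difference was 0.67 with an adjusted p of 0.362 in limma. This region was in both genotype lists. The adjoining intronic region (chr2:105142437-105142756), also in both lists, differed by 0.09 ± 0.27, and the genotypes overlapped there.

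The other 2 lay in introns of Wt1os, upstream of the gene. Both were in the Pbrm1 cKO list alone, and so entered the test through the genotype where they are high. The element 17.3 kb upstream (chr2:105108886-105109187) ranked at 88.2%, 92.9% and 100% in WT and at 72.0%, 68.9% and 74.7% in Pbrm1 cKO, a difference of 0.38 ± 0.14. The element 9.59 kb upstream (chr2:105116414-105116936) ranked at 80.4%, 93.5% and 91.5% in WT and at 63.0%, 74.9% and 72.6% in Pbrm1 cKO, a difference of 0.33 ± 0.15. Their adjusted p-values were 0.183 and 0.299 in limma. Ranked by fold, the differences were 0.10 and 0.06, with adjusted p-values of 0.577 and 0.793. In the same upstream stretch, the element 28.6 kb from the 5′ end (chr2:105097392-105097954) had the opposite sign. It ranked at 24.7%, 23.7% and 18.0% in WT and at 37.4%, 33.6% and 35.8% in Pbrm1 cKO, a difference of −0.70 ± 0.32 with an adjusted p of 0.295 in limma. The Wt1 promoter, between these elements and the intronic element, differed by 0.01.

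**Figure D4:**
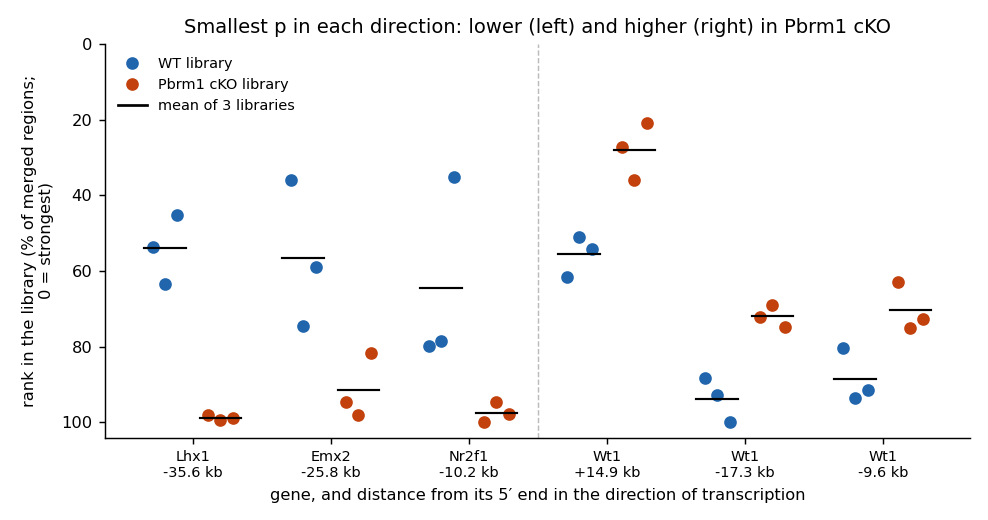
Rank in each library, as a percent of the merged regions with 0 the strongest, at the 3 regions with the smallest p among those lower in Pbrm1 cKO (left, at Lhx1, Emx2 and Nr2f1) and the 3 among those higher (right, all at Wt1). All but the Wt1 element inside the gene were in the list of a single genotype, the one where they are high. Points are libraries and bars are means of 3. At Lhx1 the WT libraries lie between 45.1% and 63.4% and the Pbrm1 cKO libraries between 98.0% and 99.2%.

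By role, the duct epithelium genes had 14 of 20 regions lower, or 70%, with a median of −0.24. The mesenchyme genes had 26 of 40 lower, or 65%, with a median of −0.10, beside 49.9% of all regions. Wt1 alone held 22 of the 40 mesenchyme regions, with 13 lower. Of the other mesenchyme genes, Nr2f2 had 6 of 8 lower, Tbx18 3 of 4, Osr1 2 of 2 and Nr2f1 2 of 4. The difference between the roles was not tested.

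The relaxed lists were counted in the same windows, since they hold weak entries that the merged regions leave out. There were 225, 216 and 232 intervals in WT libraries 1 to 3 and 190, 196 and 203 in Pbrm1 cKO libraries 1 to 3, or 224 ± 8.02 and 196 ± 6.51 (mean ± SD, n = 3 each). Every Pbrm1 cKO library had fewer than every WT library. The difference was −28 intervals, with an exact two-sided permutation p of 0.1, the smallest that 3 against 3 libraries can give, and an adjusted p of 0.2 over 2 measures. Among the 50000 best-ranked intervals of each library the difference was −8.33 intervals. Scaled to 10000 intervals of the library, a measure chosen after seeing the data, WT had 11.1, 10.3 and 9.62 and Pbrm1 cKO 9.44, 9.59 and 9.88 intervals, and the genotypes overlapped. The length covered was 54.2, 49.7 and 45.0 kb in WT and 46.9, 50.0 and 47.8 kb in Pbrm1 cKO, a difference of −1.39 kb (exact permutation p = 0.7, adjusted p = 0.7), which became 0.893 kb without WT library 1.

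Pax2 held the largest part of the gap in intervals. Its window had 32, 32 and 38 in WT and 25, 25 and 20 in Pbrm1 cKO, covering 5.75, 5.24 and 5.35 kb in WT and 3.54, 3.69 and 3.06 kb in Pbrm1 cKO. It was the only 1 of the 10 genes whose genotypes did not overlap. Over protein-coding genes, the counts of Pbrm1 cKO lay below WT without overlap at 5.82% and above at 3.96%. The Pax8 counts were 29, 28 and 32 in WT and 22, 21 and 30 in Pbrm1 cKO, and within 1 kb of a Pax8 start there were 5, 5 and 4 intervals in WT and 1, 1 and 2 in Pbrm1 cKO. The best of these start entries were weak, with 7 to 12 tags. At every other gene of the 10 the genotypes overlapped in the start count. This count was not made over all genes, so no share stands beside it, and it was not tested. For Wt1 the counts were 51, 44 and 44 in WT and 41, 40 and 46 in Pbrm1 cKO. Without the Pax2 window, left out after its values were seen, the totals were 193, 184 and 194 in WT and 165, 171 and 183 in Pbrm1 cKO.

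**Figure D5:**
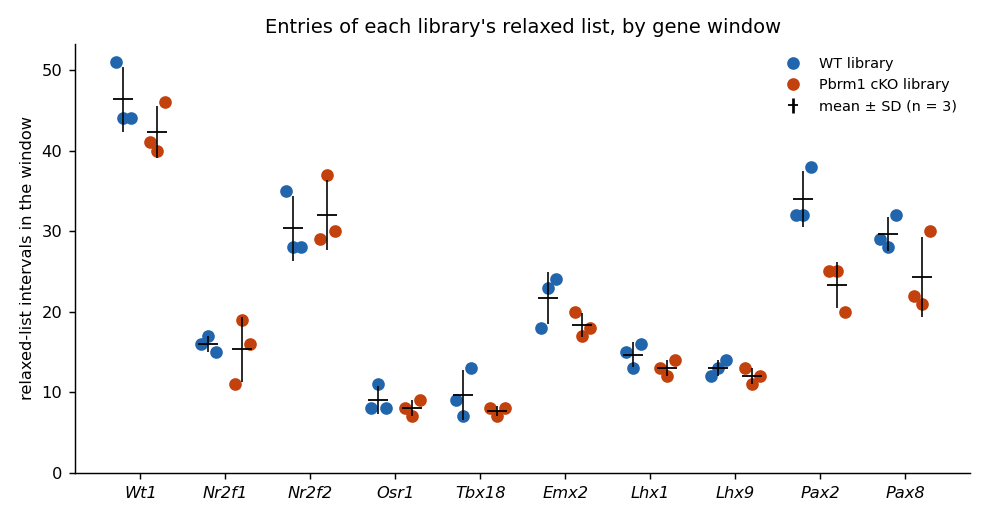
Number of distinct intervals of each library's relaxed list in the window of each gene. Blue points are WT and orange points Pbrm1 cKO libraries, with mean ± SD of 3. The genotypes are apart at Pax2 alone, with 32 to 38 intervals in WT and 20 to 25 in Pbrm1 cKO.

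Other genes of Müllerian duct development were read at their promoters for comparison. Of 14 such genes, 9 had a promoter region: Wnt9b, Amhr2, Bmpr1a, Hoxa9, Hoxa10, Ctnnb1, Dach1, Dach2 and Gata3. The ligand genes Wnt4, Wnt5a and Wnt7a and the homeobox genes Hoxa11 and Hoxa13 had none. Of the 9 promoter regions 0 passed the threshold in limma, 2 passed at an unadjusted p of 0.05, beside 12.4% of all promoter regions, and the smallest adjusted p was 0.170. Those 2 were Wnt9b, the ligand that the nephric duct sends to the Müllerian duct, at −0.46 ± 0.16, and Dach2, at −0.73 ± 0.33. The Wnt9b region, which gave the smallest adjusted p, was weak, with a mean rank of 79.3%. It was in the WT list alone and so entered the test through the genotype where it is high. The Dach2 region was in both genotype lists. Amhr2, the receptor of anti-Müllerian hormone, ranked at 80.6% and differed by 0.07 ± 0.16.

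The promoter regions whose scores over the 6 libraries were most like that of Lhx1 belonged to G6pc3, Fahd2a and Nap1l3, with root mean square distances of 0.190, 0.208 and 0.212 on the log2 rank score. The scale of likeness covers 6 libraries and all promoter regions of protein-coding genes.

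The base composition of the 65 regions was near that of regions at large, with a median of 53.0% G and C in the central 300 bases, beside 50.3%. The AP-1 motif TGANTCA lay in 17 of 65 regions, or 26.2%, beside 33.5% of all regions. Of these 17, 12 were among the 22 regions of Wt1, including the 2 printed above, and 5 were among the 43 regions of the other genes. Among distal regions the motif was in 11 of 19 at Wt1 and in 2 of 24 at the other genes, beside 43.2% of all distal regions. AGGTCA was in 11 of 65 regions, or 16.9%, beside 18.1%, GGAATG in 15, or 23.1%, beside 20.4%, and GCGTGGG in 3, or 4.62%, beside 4.33%. A match is a run of letters and does not show that a factor bound.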

How the data were processed

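ATAC-seq libraries of 3 WT and 3 Pbrm1 cKO samples of oviductal smooth muscle cells were compared. The member genes, lists and tests were chosen with earlier results of these data known.

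Per the study's methods the authors used the ENCODE ATAC-seq pipeline 1.9.0 on GRCm38/mm10, and their processing notes name cutadapt, Bowtie2 and MACS2. The authors deposited a relaxed list per library (p of 0.01, at most 300000 entries) and a conservative list per genotype (IDR of 0.05). Each entry holds the authors' fold enrichment at the summit (a ratio), a −log10 p, a −log10 q-value, and a score deposited as a rescaled value. The authors compared genotypes on read counts with DESeq2. The files hold peaks without counts, so ranks were compared, and a shift common to every region in a library would go unseen.

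The conservative lists were merged at 1 bp of overlap. limma 3.58.1 in R 4.3.3 (lmFit, eBayes with trend) took as input log2 of the number of regions divided by the rank, over all 66679 regions, with no entry as the lowest rank and Benjamini-Hochberg adjustment at 0.05. The procedure was tested on simulated data with planted changes larger than any difference among the member regions. That test therefore does not cover differences of the size seen here. Tags at a summit were recovered from its fold and p, and at least 99.98% of entries per library came out whole within 0.01 of −log10 p. Total depth is unknown here. Starts and features came from GENCODE M21. Replicate numbers did not pair the libraries. Named regions were, per gene, the best promoter and distal region by mean score, and the 3 smallest p in each direction. Interval counts were compared by exact permutation over 10 splits. A gene of the list of other duct genes is not reported here.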

Additional observations from a re-analysis of the deposited data

How the results depend on the processing

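No member region was called higher under any of the 14 alternatives of the rank fit. Under normal scores 2 regions were called lower, and under the other alternatives 0, with 10.3% to 18.5% of the member regions at an unadjusted p of 0.05 in limma, beside 11.8% to 16.7% of all regions. The median difference stayed negative, from −0.20 to −0.14 when single libraries were left out, with 0 calls in each direction, and at −0.19 in the stricter part of the conservative lists. The median with windows of 10 kb was −0.09. Window size set the counts: 39 regions with 19 distal at 10 kb and 99 with 72 distal at 100 kb, and 27 distal in the stricter part. Regions in the WT list alone were 3 at 10 kb, 16 at 100 kb and 4 in the stricter part, and those in the Pbrm1 cKO list alone 6 in the stricter part.

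The fit with replicate number as a block gave a median of −0.15, 0 member calls and 130 calls over all regions, beside 46 without it. Same-numbered libraries did not deviate together, with correlations of −0.0028, −0.0548 and 0.0093, so the numbers were taken as names only. The paired difference in intervals was −28.

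The promoter differences of Wt1 and Nr2f2, close to 0, turned negative when ranked by fold (−0.035 and −0.21), without WT library 1 (−0.16 and −0.35) and without Pbrm1 cKO library 3 (−0.02 and −0.08), and that of Nr2f2 also without Pbrm1 cKO library 1 (−0.11), and rose to 0.12 for Wt1 without WT library 2 and to 0.34 for Nr2f2 without WT library 3. The interval difference ranged from −32.2 to −24.2 without single libraries and the covered length from −3.73 to 0.893 kb. Among the 50000 best-ranked intervals they were −8.33 intervals and −0.025 kb, and with windows of 10 kb and 100 kb −15.3 and −47.7 intervals. The cause of these moves was not tested. Total depth is unknown here, so its limits were not tested.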
